A study of Mus musculus with 12 samples.

Results

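A set of 10 genes that mark alveolar macrophages was followed in the lungs of mice with lipopolysaccharide (LPS)-induced acute lung injury. The genes, Marco, Siglecf, Pparg, Fabp1, Krt79, Itgax, Cidec, Plet1, Mrc1 and Ear1, were picked by symbol from a table of 55414 genes, and all 10 were among the 15148 genes with a TPM (an RNA level scaled by gene length and by library total) of 1 or more in 6 or more lungs, which were tested. The study sequenced total RNA of 12 whole lungs, 6 from IL-10 B-KO mice and 6 from IL-10 B-WT mice, to ask what the loss of IL-10 from B cells changes. IL-10 B-KO mice carry a floxed Il10 gene and Mb1-Cre, which is driven by the promoter of a B cell receptor subunit and so acts across the B lineage. For IL-10 B-WT, the control, the sources used here give no alleles beyond the name. Both genotypes were C57BL/6J, matched for age and sex (the ages are not given), and received the same 50 µg of LPS by the airway, and the lungs were taken on day 4. No lung without LPS entered the comparison, so that every value below is a level in an injured lung. The methods describe lavage before the lungs were excised, without saying whether the sequenced lungs had been lavaged, a step that removes part of the macrophages of the air space.

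Alveolar macrophages live on the surface of the alveoli, where they clear surfactant, inhaled particles and bacteria. They settle around birth under GM-CSF from the alveolar epithelium and under TGF-beta, which induce the nuclear receptor PPAR-gamma and, with it, a program of lipid uptake and storage. Injury can reduce the resident cells while monocytes from the blood enter the lung, and these acquire the resident markers only gradually. In whole-lung RNA, fewer cells of a type and less RNA per cell cannot be told apart.

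The promoters of 4 of the genes are shown because their levels followed different patterns across the lungs, as described further on. The sequences are those of RefSeq on GRCm38.p6, from 250 bases before to 50 bases after the start of transcription, on the strand of the gene. They lie at chr1:120504975-120505274 on the minus strand for Marco, at chr14:43819590-43819889 on the minus strand for Ear1, at chr6:71199629-71199928 on the plus strand for Fabp1, and at chr6:113434715-113435014 on the minus strand for Cidec, where the second of its starts in the table is shown. For Ear1 the RefSeq start, 43819639, lies 55878 bases inside the gene as GENCODE draws it, so that the annotations differ on its start. Capitals mark matches, on either strand, to the core of the macrophage factor PU.1 (GAGGAAG), the C/EBP motif (TTGCNNAA), the hexamer bound by PPAR-gamma and other nuclear receptors (AGGTCA) and the AP-1 motif (TGANTCA).
Marco: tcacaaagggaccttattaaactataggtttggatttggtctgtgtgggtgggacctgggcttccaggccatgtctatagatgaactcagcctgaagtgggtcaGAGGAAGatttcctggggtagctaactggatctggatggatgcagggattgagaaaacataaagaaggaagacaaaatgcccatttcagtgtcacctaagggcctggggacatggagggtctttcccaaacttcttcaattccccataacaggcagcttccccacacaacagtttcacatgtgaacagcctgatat
Ear1: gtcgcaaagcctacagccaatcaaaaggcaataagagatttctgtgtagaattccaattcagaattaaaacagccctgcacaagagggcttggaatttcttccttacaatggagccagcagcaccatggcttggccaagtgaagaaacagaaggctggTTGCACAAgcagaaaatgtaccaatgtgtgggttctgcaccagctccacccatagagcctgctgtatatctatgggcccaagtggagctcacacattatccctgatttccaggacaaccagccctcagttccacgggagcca
Fabp1: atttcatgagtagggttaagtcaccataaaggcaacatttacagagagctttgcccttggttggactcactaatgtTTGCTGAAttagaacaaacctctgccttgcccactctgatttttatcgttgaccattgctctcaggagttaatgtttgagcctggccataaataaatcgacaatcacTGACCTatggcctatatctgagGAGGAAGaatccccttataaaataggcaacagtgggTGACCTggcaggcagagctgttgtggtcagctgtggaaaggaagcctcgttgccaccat
Cidec: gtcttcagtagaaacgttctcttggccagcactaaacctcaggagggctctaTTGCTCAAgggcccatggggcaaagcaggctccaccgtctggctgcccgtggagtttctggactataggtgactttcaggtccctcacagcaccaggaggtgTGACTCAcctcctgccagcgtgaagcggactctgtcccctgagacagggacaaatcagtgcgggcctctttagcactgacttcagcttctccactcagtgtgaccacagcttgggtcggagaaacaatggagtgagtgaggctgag
All 10 genes had a promoter in the table, with 13 promoters in all (3 for Pparg and 2 for Cidec). The PU.1 core was found in 4 of the 13 promoters, those of Marco (146 bases before the start), Siglecf, Fabp1 and Mrc1, and in 13.6% of the 32851 promoters in the table. The C/EBP motif was found in 5 of the 13 (1 each of Pparg, Fabp1, Cidec, Plet1 and Ear1), beside 10.8% of all promoters. The PPAR hexamer was found in 4 of the 13 (2 of Pparg, and those of Fabp1 and Plet1), beside 16.3%, and Fabp1 held it at 67 and at 9 bases before the start. The AP-1 motif was found in 3 of the 13 (Itgax, Cidec and Plet1), beside 7.81%. The E-box (CACGTG, in 7.15% of all promoters) and the direct repeat of the PPAR hexamer with a spacer of 1 base (DR1, in 0.0396%) were not found in any of the 13, and Krt79 held no match. The first promoter of Cidec, whose start is that of the gene in GENCODE, held no match either. The second one, shown above, starts 996 bases from it. No motif overlapped another in these windows. These are matches of letters and not measured binding.

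The libraries differed in ways that touch these genes. The columns summed to between 991646 and 994430 TPM, and the number of reads behind them is not known from TPM. In IL-10 B-WT replicate 5 the 10 most abundant genes took 45.1% of the TPM, against 10.6% to 29.1% in the other lungs, and 21380 genes were above 0, against 22595 to 24138. IL-10 B-WT replicate 1 lay among the IL-10 B-KO lungs, and IL-10 B-KO replicate 2 among the IL-10 B-WT lungs, in the mean of 12 pan-macrophage genes. The targeted gene, Il10, was at 0.88 TPM or less in every lung, with a median of 0.29 TPM over the IL-10 B-WT lungs and of 0.235 TPM over the others (exact permutation p = 0.745, n = 6 each), and did not separate the genotypes. Transcripts of B cells themselves were low in IL-10 B-KO lungs, where the B cell receptor subunit Cd79a was at 5.73 TPM or less, against 15.3 to 258.6 TPM in IL-10 B-WT. The genotypes thus also differed in B cell RNA, and its part in the results below was not tested.

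None of the 10 genes passed the threshold between the genotypes over the 12 lungs. In limma on log2(TPM + 1) with Benjamini-Hochberg adjustment over all 15148 genes, 0 of 10 were called, that is, reached an adjusted p of 0.05 together with a log2 fold change of 1 or more in either direction, where 75 of all genes tested did (0.495%). By the unadjusted p alone 1 of 10 (Ear1) was at or below 0.05, against 12.5% of all genes tested. The log2 fold change (IL-10 B-KO minus IL-10 B-WT) was above 0 for 7 genes and below 0 for 3, with a median of 0.27, beside a median of 0.10 over all genes. Of all genes tested 63.2% were above 0, the share to set beside such counts here and in the lists below. With a lung left out in turn the median of the 10 ranged from 0.061, without IL-10 B-WT replicate 5, to 0.45, without IL-10 B-KO replicate 6, and with array quality weights it was -0.10. The genotypes overlapped in all 10 genes, and 9 of the 10 intervals held 0. How many of all genes tested overlap was not counted. The 10 genes did not share a direction. Every IL-10 B-KO lung was above the IL-10 B-WT median for Marco, Siglecf and Ear1, and every one was below it for Cidec. Adding 1 before the log2 shrinks fold changes where TPM are low.

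**Figure D1:**
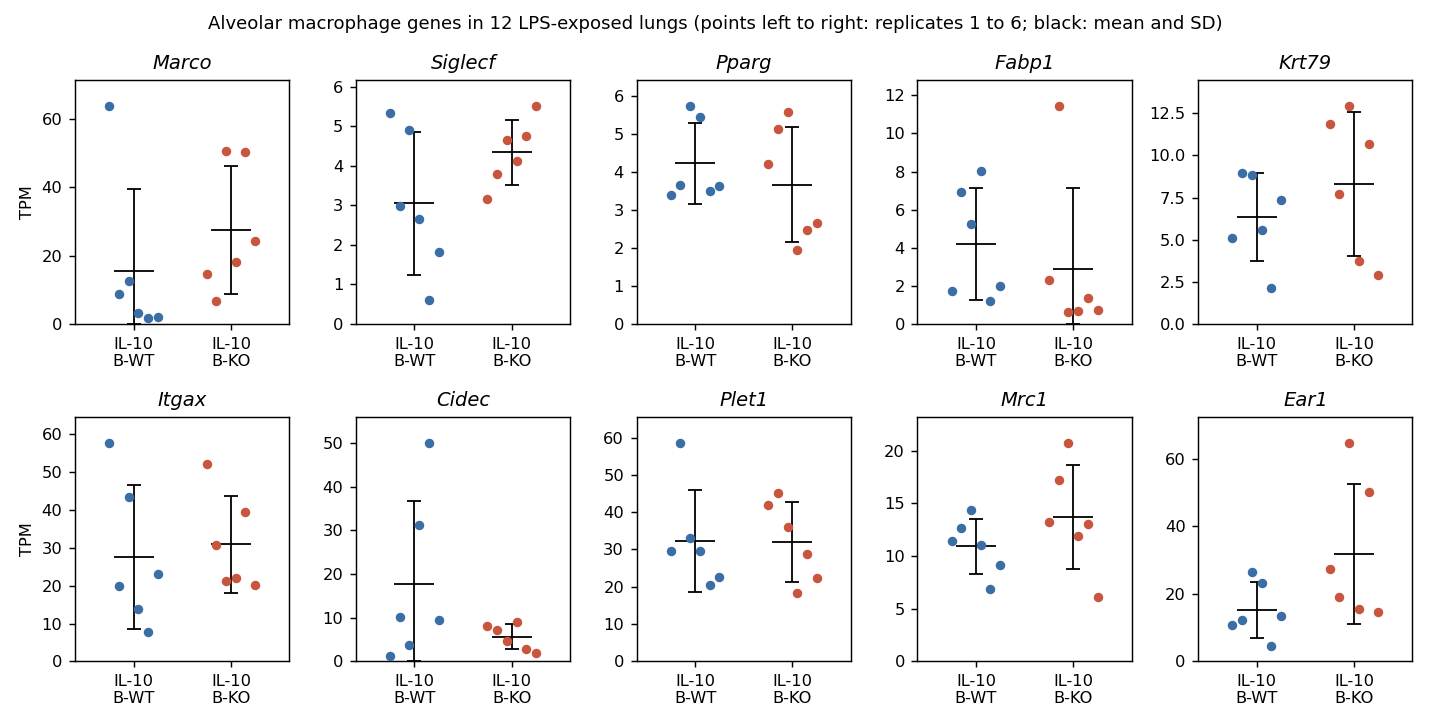
TPM of each gene in the 12 lungs, with its own axis from 0 in each panel. Points are single lungs (IL-10 B-WT blue, IL-10 B-KO red, replicates 1 to 6 from left to right), and black lines are the mean and SD of 6 lungs, drawn down to 0 where the SD exceeds the mean. Marco reaches 63.7 TPM in IL-10 B-WT replicate 1, far above the other lungs of that genotype, Cidec is highest in replicates 5 and 4 of IL-10 B-WT, at 49.95 and 31.3 TPM, and the genotypes overlap in every panel.

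Among the surface receptors by which alveolar macrophages are recognized, the estimates ranged from near 0 to the largest of the 10. Marco (ENSMUSG00000026390, chromosome 1, 120474538 to 120505024, minus strand), a scavenger receptor for bacteria and particles, was listed at 63.7, 8.81, 12.7, 3.35, 1.73 and 2.17 TPM for the 6 IL-10 B-WT lungs, in the order of their replicate numbers, and at 14.6, 6.84, 50.7, 18.0, 50.3 and 24.1 TPM for the 6 of IL-10 B-KO. Its highest lung of all was thus IL-10 B-WT replicate 1, while the other 5 lungs of that genotype were at 12.7 TPM or less and 5 of the 6 lungs of IL-10 B-KO were above them. Means were 15.4 ± 24.1 TPM for IL-10 B-WT against 27.4 ± 18.7 TPM for IL-10 B-KO (SD, n = 6 each), giving a log2 fold change of 1.48 (standard error, SE, 0.72, 95% interval -0.06 to 3.03, limma adjusted p = 0.418, exact permutation p = 0.108). Marco also varied most among the 10 genes within IL-10 B-WT, with a coefficient of variation of 156.1%.

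Siglecf (ENSMUSG00000039013, chromosome 7, 43351341 to 43359531, plus strand), a sialic acid-binding lectin carried by alveolar macrophages and eosinophils, was listed at 5.32, 2.99, 4.90, 2.65, 0.61 and 1.82 TPM for the 6 IL-10 B-WT lungs, in the order of their replicate numbers, and at 3.15, 3.80, 4.66, 4.13, 4.75 and 5.51 TPM for the 6 of IL-10 B-KO. The IL-10 B-KO lungs lay close together (coefficient of variation 19.0%), inside the range of IL-10 B-WT apart from replicate 6, and the IL-10 B-WT lungs were spread (59.1%). The log2 fold change was 0.52 (SE 0.29, limma adjusted p = 0.467, exact permutation p = 0.119, n = 6 each). Without IL-10 B-WT replicate 5, the lowest lung, it was 0.28.

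Mrc1 (ENSMUSG00000026712, chromosome 2, 14229392 to 14332057, plus strand), the mannose receptor CD206, which interstitial macrophages and lymphatic endothelium also carry, had the lowest coefficient of variation of the 10 in IL-10 B-WT lungs, 24.1%. It ranged from 6.84 to 14.3 TPM (median 11.2) in IL-10 B-WT lungs, against 6.11 to 20.7 TPM (median 13.1) in those of IL-10 B-KO, with a log2 fold change of 0.26 (95% interval -0.29 to 0.80, limma adjusted p = 0.664). Itgax (ENSMUSG00000030789, chromosome 7, 128129547 to 128150657, plus strand), the integrin chain CD11c of alveolar macrophages and dendritic cells, ranged from 7.63 to 57.6 TPM (median 21.5) and from 20.1 to 52.2 TPM (median 26.3). Its log2 fold change was 0.35 (95% interval -0.55 to 1.25, limma adjusted p = 0.718), which became 0.064 when replicate 5 of IL-10 B-WT was left out and 0.62 when replicate 1 was. Of the stretches of 50 bases in its longest transcript, 9.61% also occur in Itgad, the neighbouring integrin gene, so that a part of its reads cannot be assigned with certainty. Plet1 (ENSMUSG00000032068, chromosome 9, 50494525 to 50505482, plus strand), a surface protein anchored to the membrane by lipid, had the highest mean of the 10 genes, 32.3 ± 13.7 TPM in IL-10 B-WT lungs, against 32.1 ± 10.7 TPM in those of IL-10 B-KO (SD, n = 6 each). Its log2 fold change was 0.01 with an interval from -0.58 to 0.59, and its sign turned with the scaling and with the lung left out.

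The regulator Pparg and the lipid genes Fabp1 and Cidec had log2 fold changes below 0, none of them past the threshold. Pparg (ENSMUSG00000000440, chromosome 6, 115360951 to 115490399, plus strand), the nuclear receptor that sustains the alveolar macrophage program and is also a regulator of fat cells, ranged from 3.39 to 5.73 TPM (median 3.65) in IL-10 B-WT lungs, against 1.95 to 5.56 TPM (median 3.44) in those of IL-10 B-KO. IL-10 B-KO replicates 4, 5 and 6 lay under the whole IL-10 B-WT range and the other 3 were above the IL-10 B-WT median, and the log2 fold change was -0.21 (95% interval -0.69 to 0.28, limma adjusted p = 0.696). Fabp1 (ENSMUSG00000054422, chromosome 6, 71199827 to 71205023, plus strand), a fatty acid-binding protein best known from liver and gut, was listed at 1.71, 6.94, 5.24, 8.04, 1.21 and 2.01 TPM for the 6 IL-10 B-WT lungs, in the order of their replicate numbers, and at 2.32, 11.4, 0.62, 0.69, 1.37 and 0.76 TPM for the 6 of IL-10 B-KO. IL-10 B-KO replicate 2 was the highest of the 12 lungs, while 5 of 6 lungs of that genotype were below the IL-10 B-WT median of 3.63 TPM. The log2 fold change was -0.68 (SE 0.52, limma adjusted p = 0.564, exact permutation p = 0.273, n = 6 each). Without IL-10 B-KO replicate 2 it was -1.11 (SE 0.39, unadjusted p = 0.0129 and adjusted p = 0.156 in limma).

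Cidec (ENSMUSG00000030278, chromosome 6, 113424634 to 113435760, minus strand), a lipid droplet protein of fat cells and of lipid-laden macrophages, was listed at 1.34, 10.3, 3.73, 31.3, 49.95 and 9.44 TPM for the 6 IL-10 B-WT lungs, in the order of their replicate numbers, and at 8.20, 7.29, 4.74, 8.93, 2.95 and 1.95 TPM for the 6 of IL-10 B-KO. Both the highest and the lowest lungs were IL-10 B-WT, replicates 5 and 1, a range of 37.3-fold over the 12 lungs. The mean was 17.7 ± 19.0 TPM and 5.68 ± 2.89 TPM (SD, n = 6 each), with a log2 fold change of -0.90 (SE 0.65, limma adjusted p = 0.545, exact permutation p = 0.255). Without IL-10 B-WT replicate 5 the log2 fold change was -0.47.

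The ribonuclease Ear1 and the keratin Krt79 are less common markers, found with alveolar macrophages in transcript profiles. Ear1 (ENSMUSG00000072601, chromosome 14, 43818765 to 43875517, minus strand), an eosinophil-associated ribonuclease, was listed at 10.7, 12.2, 26.6, 23.4, 4.65 and 13.4 TPM for the 6 IL-10 B-WT lungs, in the order of their replicate numbers, and at 27.5, 19.0, 64.7, 15.4, 50.2 and 14.8 TPM for the 6 of IL-10 B-KO. IL-10 B-KO replicates 1, 3 and 5 were above every IL-10 B-WT lung, and the other 3 lay within their range. The log2 fold change was 0.98 (SE 0.44, 95% interval 0.04 to 1.92, unadjusted p = 0.0419 and adjusted p = 0.381 in limma, exact permutation p = 0.0779). Of the stretches of 50 bases in its longest transcript 57.4% also occur in another gene of the family (Ear2, Ear6, Ear10 or a pseudogene), so that the split of reads between them is uncertain. Ear2, the most abundant of the family with a mean of 76.5 TPM over the 12 lungs, had a log2 fold change of 0.38 (limma adjusted p = 0.684). Ear6 ranged from 0 to 4.07 TPM in IL-10 B-WT lungs, against 0.55 to 16.6 TPM in those of IL-10 B-KO, with a log2 fold change of 1.84 (limma adjusted p = 0.256). Rnase2a, Rnase2b and Ear14 did not exceed 1.10 TPM in any lung, and Ear10 is listed at 0 in all. Krt79 (ENSMUSG00000061397, chromosome 15, 101929332 to 101940324, minus strand) ranged from 2.15 to 8.95 TPM (median 6.47) in IL-10 B-WT lungs, against 2.90 to 12.9 TPM (median 9.19) in those of IL-10 B-KO. Its log2 fold change was 0.28 (95% interval -0.51 to 1.08, limma adjusted p = 0.744), with 3 IL-10 B-KO lungs above every IL-10 B-WT lung and the lowest ones of both genotypes side by side.

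**Figure D2:**
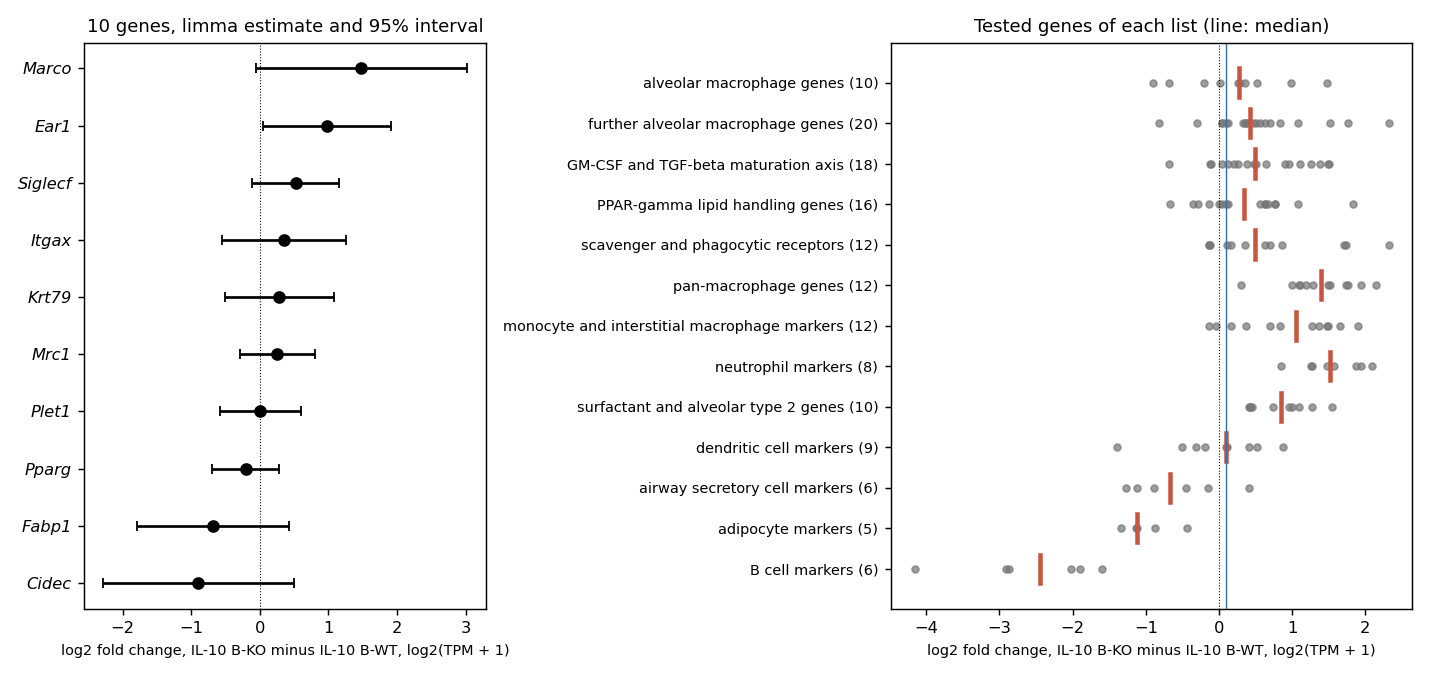
Left, the limma log2 fold change (IL-10 B-KO minus IL-10 B-WT, on log2(TPM + 1)) of the 10 genes with its 95% interval. Right, the log2 fold changes of the tested genes of each list (grey points, number of genes in brackets), with the median of the list as a red line and the median of all genes tested, 0.10, as a blue line. The 10 genes have a median of 0.27, below that of the pan-macrophage genes at 1.39.

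Other genes of the alveolar macrophage were read from further lists. Of 20 further alveolar macrophage genes, all of them tested, 18 had a log2 fold change above 0 and 2 below, with a median of 0.42, and 0 were called, while 2 were at or below 0.05 before adjustment. Wfdc21, a secreted protein of myeloid cells, had the lowest p, with medians of 10.1 TPM in IL-10 B-WT lungs, against 94.3 TPM in those of IL-10 B-KO, and a log2 fold change of 2.32 (limma adjusted p = 0.297). Chil3, the chitinase-like protein Ym1, had medians of 148.4 and 517.3 TPM and a log2 fold change of 1.77 (limma adjusted p = 0.349). The chemokine Ccl6 and the fatty acid-binding protein Fabp5 followed, with log2 fold changes of 0.51 and 1.08 (limma adjusted p = 0.418 and 0.429). Summed over the 20 genes, the level was 1191 to 1834 TPM in IL-10 B-WT lungs, against 1633 to 2829 TPM in those of IL-10 B-KO. Part of this sum came from genes that other lung cells also carry. These were Cd9, at 341.9 to 549.5 TPM over the 12 lungs, and Car4 of capillary endothelium, at 114.1 to 612.3 TPM. Another part was Chil3, at 22.7 to 459.6 TPM in IL-10 B-WT lungs, against 161.8 to 1397 TPM in those of IL-10 B-KO. In IL-10 B-KO replicates 3, 5 and 6 Chil3, at 1242, 1397 and 633.2 TPM, was above both Cd9 and Car4. Chil3 and Wfdc21 were lowest in IL-10 B-WT replicate 5, at 22.7 and 3.98 TPM.

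The signals under which alveolar macrophages mature showed the same lack of calls. Of 18 genes of the GM-CSF and TGF-beta axis and its transcription factors, 15 had a log2 fold change above 0 (median 0.50), 0 were called, and 5 were at or below 0.05 before adjustment, 4 above 0 and 1 below. The one below was the transcription factor Klf4, at 66.5 to 150.9 TPM in IL-10 B-WT lungs, against 53.9 to 79.5 TPM in those of IL-10 B-KO (log2 fold change -0.69, limma adjusted p = 0.164). Bhlhe40, a transcriptional repressor, and Csf2ra, the GM-CSF receptor chain, had log2 fold changes of 1.11 and 1.5 (limma adjusted p = 0.343 and 0.360). Of 16 PPAR-gamma-linked lipid genes 12 were above 0 (median 0.34) and 0 were called. Plin2, which coats lipid droplets, was at 34.6 to 215.5 TPM (median 66.1) in IL-10 B-WT lungs, against 75.8 to 491.6 TPM (median 323.4) in those of IL-10 B-KO, a log2 fold change of 1.83 (limma adjusted p = 0.139), with 5 IL-10 B-KO lungs above every IL-10 B-WT lung. Cpt1a, which brings fatty acids into mitochondria for oxidation, had medians of 37.95 and 62.2 TPM (0.64, limma adjusted p = 0.169), and the lipase Lipa had a log2 fold change of 0.67 (limma adjusted p = 0.431). Among 12 tested scavenger and phagocytic receptors of 14, 9 were above 0 (median 0.49) and 0 were called. Cd300a, an inhibitory receptor, Cd68, Stab1 and Msr1 had log2 fold changes of 1.71, 1.73, 0.63 and 2.32 (limma adjusted p = 0.188, 0.301, 0.328 and 0.353).

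Genes that every macrophage carries had a larger median log2 fold change than the 10. All 12 pan-macrophage genes had a log2 fold change above 0, with a median of 1.39, and 11 were at or below 0.05 before adjustment, against 12.5% of all genes tested, but 0 were called. The lysosomal protein Cd68, the lectin Lgals3 and Adgre1 (F4/80) were among those with the lowest p-values, with log2 fold changes of 1.73, 1.51 and 1.94 and adjusted p-values of 0.301, 0.301 and 0.326 in limma. Of 12 monocyte and interstitial macrophage markers 10 were above 0 (median 1.06), with C1qb, C1qc and C1qa of the complement system among the lowest p-values, at 1.65, 1.48 and 1.36 (limma adjusted p = 0.304, 0.321 and 0.330). All 8 neutrophil markers were above 0 (median 1.52), with Retnlg, S100a9, S100a8 and Ly6g at 2.09, 1.87, 1.94 and 1.27 (limma adjusted p = 0.187, 0.214, 0.266 and 0.268). All 10 surfactant and alveolar type 2 genes were above 0 (median 0.85), with Sftpd, Sftpa1, Lamp3 and Sftpb at 1.54, 1.09, 1.27 and 0.74 (limma adjusted p = 0.328, 0.343, 0.353 and 0.378). Lists share some genes, such as Cd68 and Fabp5, and are not independent of each other.

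To set the 10 genes against macrophage RNA in the same lung, the mean log2(TPM + 1) of the 12 pan-macrophage genes was subtracted from each gene, a comparison added after the values were seen. That mean was 6.63 ± 1.17 in IL-10 B-WT lungs, against 8.01 ± 0.83 in those of IL-10 B-KO (SD, n = 6 each), a difference of 1.38, so that most genes are bound to be lower on this scale. Of all genes tested 98.6% were, with a median difference of -1.28, and 61.2% were lower at an exact permutation p of at most 0.05. Of the 10 genes, 9 were lower and 1 of them passed the same p, namely Itgax, with a difference of -1.03 (p = 0.0476, exact permutation test, n = 6 each). Marco, at 0.10 (exact permutation p = 0.797), and Ear1, at -0.40 (exact permutation p = 0.528), stayed nearest to the pan-macrophage genes. The other 8 lay between -2.28 for Cidec and -0.86 for Siglecf, around the median of all genes.

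Single lungs decided what was called. Without IL-10 B-WT replicate 1, Marco was called, at 5.75 ± 4.80 TPM in IL-10 B-WT (n = 5) and 27.4 ± 18.7 TPM in IL-10 B-KO (n = 6), with a log2 fold change of 2.07 (SE 0.54, limma adjusted p = 0.0475). Calls over all genes grew as well, to 576 of 14943 tested (3.85%). Of the further alveolar macrophage genes Wfdc21 was called, of the pan-macrophage genes 8 of 12, and Plin2, Bhlhe40, Cd300a and Cd68 were called among the lists above. Markers of other cells were called as well, namely 5 of 8 neutrophil markers, Sftpd of the alveolar type 2 genes and Sirpa of the dendritic cell markers as higher, and Cd209a, Cd79a and Pax5 as lower. With IL-10 B-KO replicate 2 left out instead, 0 of the 10 were called, and Marco had a log2 fold change of 1.79 (limma adjusted p = 0.211). With both lungs left out, Marco (log2 fold change 2.39, limma adjusted p = 0.00732, no overlap) and Fabp1 (-1.26, limma adjusted p = 0.0447, with overlap) were called, as were 1430 of 14762 genes (9.69%). Pan-macrophage calls were then 11 of 12, and those of the further alveolar macrophage genes 6, with Chil3, Csf2rb2, Ctsk, Olr1 and Wfdc21 higher and Car4 lower. Among other cells, 7 of 8 neutrophil markers, 7 of 12 monocyte and interstitial macrophage markers and 4 of 10 surfactant and alveolar type 2 genes were then called higher, and all 5 tested B cell markers and 2 of 6 airway secretory markers (Scgb1a1 and Cyp2f2) lower. Their part in the calls of Marco and Fabp1 was not tested. These 2 lungs were singled out, with earlier results known, because each lay among the other genotype in macrophage genes (pan-macrophage means of 8.60 and 6.40, against most 7.23 in the other IL-10 B-WT and at least 7.93 in the other IL-10 B-KO lungs), so that leaving both out widens the difference by construction. Without IL-10 B-WT replicate 5, in which 5 of the 10 genes were at their lowest over the 12 lungs and Cidec at its highest, the log2 fold changes of Marco and Ear1 were 1.16 and 0.71, those of Krt79 and Mrc1 were 0.058 and 0.14, and 0 of the 10 were called.

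**Figure D3:**
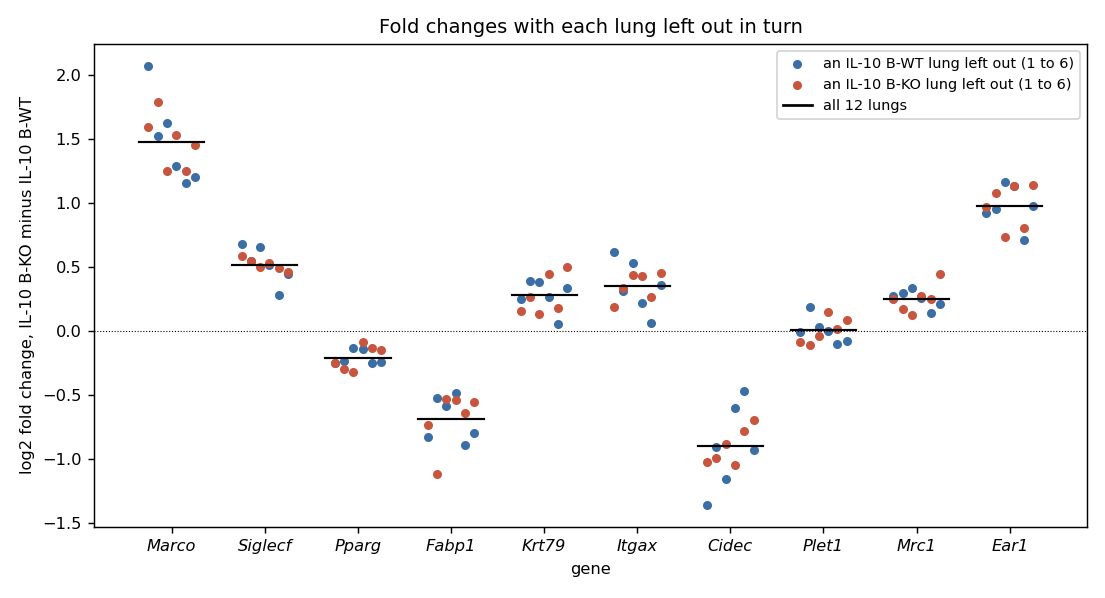
Limma log2 fold change (IL-10 B-KO minus IL-10 B-WT) of each gene over all 12 lungs (black line) and with each lung left out in turn (blue, an IL-10 B-WT lung; red, an IL-10 B-KO lung; replicates 1 to 6 from left to right). Marco moves between 1.16 and 2.07 and Cidec between -1.36 and -0.47, each keeping its sign, while Plet1 crosses 0.

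The 10 genes did not vary as 1 group from lung to lung either. Pearson's r was taken over the 12 lungs on log2(TPM + 1) after centring each gene within its genotype, as a description, since all genes of a lung share its library, its total and its cell makeup. Over the 45 pairs of the 10 genes the median r was 0.35, from -0.86 to 0.80. Of the 9 pairs with Cidec 7 were below 0, and of the other 36 pairs 2 were. The closest pairs were Krt79 with Ear1 (r 0.80, Spearman's rho 0.81), Krt79 with Mrc1 (r 0.80, rho 0.67) and Marco with Siglecf (r 0.78, rho 0.85), and r was 0.65, 0.48 and 0.67 without the 2 lungs farthest from the median. Mrc1 and Krt79 were the most like the mean of the other members, at r 0.83 each, against 0.21 for Marco and -0.47 for Cidec. Outside the 10, the genes whose pattern was most like the mean of the members were Ogfod3, Cdca7l, Parn, Bdnf and Atp9a, with r from 0.94 to 0.97 and, without the 2 farthest lungs, from 0.85 to 0.94, and none of them is in the macrophage lists.

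Each gene was then set beside the mean of marker lists. Marco lay close to the pan-macrophage genes (r 0.92, rho 0.90, and 0.84 without the 2 farthest lungs) and to the monocyte and interstitial macrophage markers (r 0.92, rho 0.93, and 0.90), in that respect unlike Pparg, for which the same values of r were -0.17 and -0.06 (0.235 and 0.34 without the 2 farthest lungs). Nearest to Marco in the whole table were Scamp3, Ube2d3, Ptprj, Gng12 and Plek (r 0.98 to 0.99, and 0.96 to 0.98 without the 2 farthest lungs). None of them is in either list. Siglecf lay closest to the surfactant and alveolar type 2 genes (r 0.92, rho 0.87, and 0.72 without the 2 farthest lungs), while with the pan-macrophage genes r was 0.75, and 0.80 without the 2 farthest lungs. The genes nearest to Siglecf in the whole table included the ion channel Ano1 (r 0.99) and the phosphate carrier Slc34a2 of alveolar type 2 cells (r 0.94). Itgax lay closest to the same list (r 0.78), but this was 0.37 without the 2 farthest lungs, when the pan-macrophage genes were closest (r 0.70, and 0.66 over the 12 lungs), and the nearest gene in the table was the interferon-induced Mx1 (r 0.96). Cidec lay closest to the adipocyte markers (r 0.92, rho 0.92, and 0.93 without the 2 farthest lungs) and against the pan-macrophage genes (r -0.83), and the genes nearest to it were Adig and Plin4 of fat cells and the cardiac muscle actin Actc1 (r 0.97, 0.91 and 0.91). Fabp1 and Pparg had their higher r with the airway secretory markers, at 0.56 and 0.51 (0.47 and 0.41 without the 2 farthest lungs). For Fabp1 r was also high with B cell markers, at 0.58, which was -0.04 without the 2 farthest lungs. Ear1 and Mrc1 were nearest to the lymphatic endothelial markers (r 0.77 and 0.67, and 0.57 and 0.32 without the 2 farthest lungs). Without the 2 farthest lungs, which differ from list to list, both were nearest to the monocyte and interstitial macrophage markers (r 0.79 and 0.68, and 0.58 and 0.35 over the 12 lungs). Krt79 was nearest to the lymphatic endothelial markers (r 0.66, and 0.22 without the 2 farthest lungs). With the monocyte and interstitial macrophage markers its r was 0.47, and 0.74 without the 2 farthest lungs. Plet1 was nearest to the B cell markers (r 0.58, and -0.16 without the 2 farthest lungs). In all, 100 such values were computed, and the highest of each gene was picked after seeing them.

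**Figure D4:**
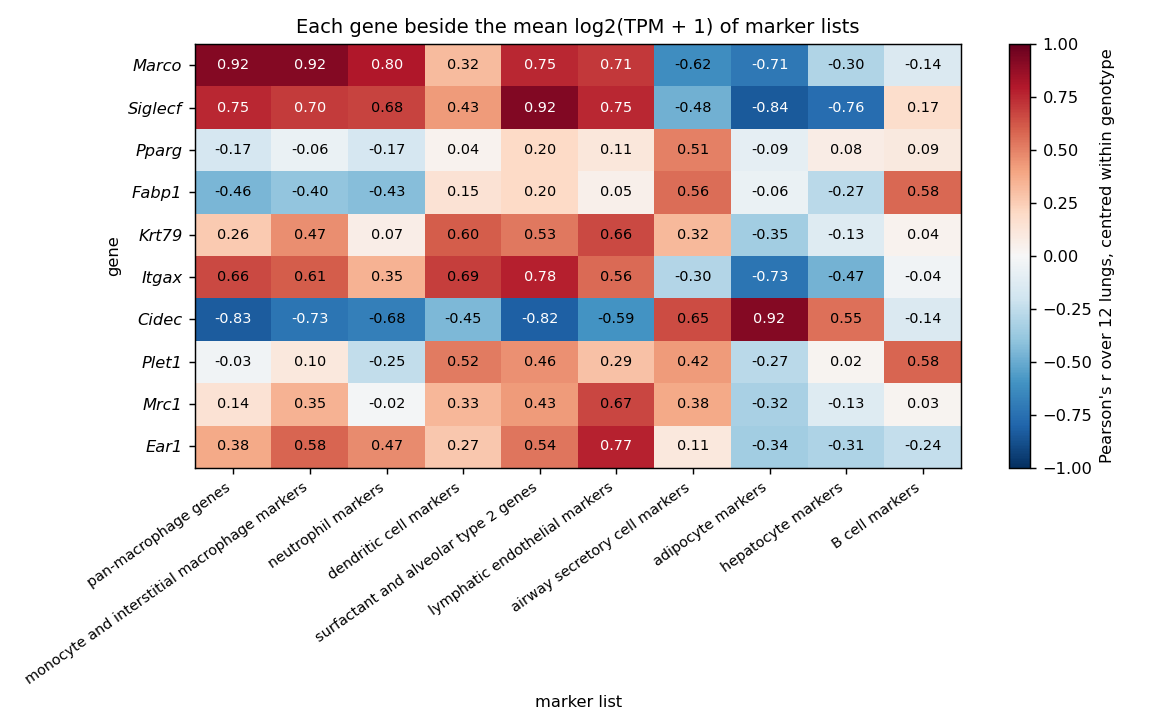
Pearson's r over 12 lungs, centred within genotype, between each of the 10 genes (rows) and the mean log2(TPM + 1) of the tested genes of each marker list (columns), from -1 (blue) to 1 (red). Marco is at 0.92 with the pan-macrophage genes and Cidec at 0.92 with the adipocyte markers, while Pparg stays between -0.17 and 0.51.

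**Figure D5:**
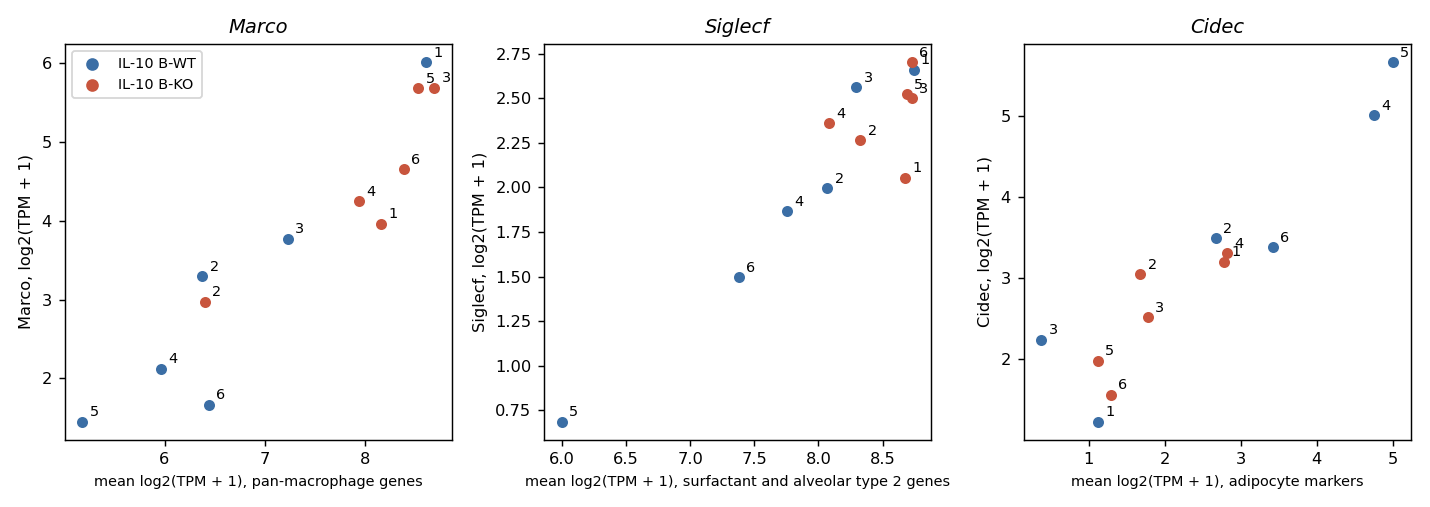
Log2(TPM + 1) of Marco, Siglecf and Cidec in each lung against the mean log2(TPM + 1) of a marker list, without centring (IL-10 B-WT blue, IL-10 B-KO red, numbers are replicates). IL-10 B-WT replicate 5 lies lowest for Marco and Siglecf and highest for Cidec, and IL-10 B-WT replicate 1 lies at the other end for Marco and Cidec.

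Other cells of the lung express some of the same genes, and their markers were read beside the 10. The 6 adipocyte markers, of which 5 were tested and all 5 had a log2 fold change below 0 (median -1.12, 0 called), summed to 1.73 to 468.4 TPM in IL-10 B-WT lungs, against 8.65 to 75.3 TPM in those of IL-10 B-KO, and Adipoq, the fat cell hormone, ranged from 0 to 41.8 TPM and from 0.24 to 6.67 TPM. Plin1, Cidea, Adipoq and Retn had log2 fold changes of -1.12, -0.43, -1.14 and -0.87 (exact permutation p = 0.188, 0.156, 0.271 and 0.325). The part of fat in the lung samples in the values of Cidec was not tested. The 6 airway secretory markers, with 5 below 0 (median -0.67, 0 called), summed to 23410 to 101400 TPM in IL-10 B-WT lungs, against 8695 to 105600 TPM in those of IL-10 B-KO, most of it Scgb1a1 of club cells (log2 fold change -1.12, limma adjusted p = 0.435). Cyp2f2, Scgb3a2 and Muc5b had log2 fold changes of -1.27, -0.89 and 0.41 (limma adjusted p = 0.465, 0.606 and 0.709). The part of airway RNA in the values of Fabp1 and Pparg was not tested.

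Eosinophils also carry Siglecf and Ear1, and their markers, most of them low, did not share a direction between the genotypes. Epx, the eosinophil peroxidase, was at 0.05 TPM or less and the receptor Ccr3 at 0.21 TPM or less in every lung. The granule protein Prg2 was at 0.28 to 4.78 TPM in IL-10 B-WT lungs, against 0 to 0.75 TPM in those of IL-10 B-KO (exact permutation p = 0.00649, unadjusted, n = 6 each), with 5 of 6 lungs of IL-10 B-KO below every IL-10 B-WT lung. Il5ra, a chain of the receptor for IL-5, was at 0.08 to 1.42 TPM, against 0.03 to 0.14 TPM (exact permutation p = 0.0173, unadjusted, n = 6 each). Prg3 was above 0 only in replicates 2 and 6 of IL-10 B-WT, at 1.65 and 0.24 TPM. Prg2, Il5ra and Prg3 were each highest in replicate 2 of IL-10 B-WT. In that lung immunoglobulin genes took 15.36% of the TPM, the most of any lung, and the part of B cell RNA in these values was not tested. Prg2, at 4.78 TPM, was above Siglecf, at 2.99 TPM, in replicate 2 of IL-10 B-WT. These markers were named after their values were seen, and their part in the values of Siglecf and Ear1 was not tested. Of the 8 eosinophil markers only Ear6 and Cebpe were tested, the second also a gene of neutrophil precursors (log2 fold change 0.60, limma adjusted p = 0.441), and the 8 summed to 2.48 to 9.61 TPM in IL-10 B-WT lungs, against 2.25 to 21.97 TPM in those of IL-10 B-KO. For Krt79, none of the 6 keratinocyte and basal cell markers was tested, and they summed to 0.43 to 3.31 TPM in IL-10 B-WT lungs, against 0.78 to 2.81 TPM in those of IL-10 B-KO. For Fabp1, the 6 hepatocyte markers summed to 5.83 to 18.7 TPM and 5.47 to 8.87 TPM, and the 3 tested, Apoa1, Alb and Ahsg, had log2 fold changes of -0.33, -0.10 and -0.09 (limma adjusted p = 0.567, 0.854 and 0.881). For Itgax, 9 of 10 dendritic cell markers were tested, 5 above 0 and 4 below (median 0.09, 0 called). Cd209a and Sirpa had the lowest p-values, at -1.39 and 0.88 (limma adjusted p = 0.280 and 0.372), followed by Itgae and Ccr7 at 0.53 and -0.50 (limma adjusted p = 0.474 and 0.557). For Mrc1, the tested lymphatic endothelial markers had 1 of 5 above 0 (Pdpn, 0.71, limma adjusted p = 0.543), and Mmrn1, Flt4 and Lyve1 were at -0.28, -0.08 and -0.13 (limma adjusted p = 0.657, 0.851 and 0.923). The part of these cells in the values of Krt79, Fabp1, Itgax and Mrc1 was not tested. All 6 B cell markers were below 0 (median -2.45), with Cd79a called (log2 fold change -4.16, limma adjusted p = 0.0222) and Pax5 and Ms4a1 at -2.88 and -2.03 (limma adjusted p = 0.0731 and 0.298).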

How the data were processed

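Total RNA of 12 mouse lungs, 6 a genotype, was sequenced, and the submitters' processing notes name fastp, HISAT and RSEM and the build GRCm38.p5, without versions or annotation release. The authors deposited TPM for each gene and lung, which RSEM estimates, with 2 decimals. The read depth is unknown from TPM, so that counting errors and count models were out of reach and precision rests on the spread between lungs. Log2(TPM + 1) was fitted in limma 3.58.1 (R 4.3.3, trended eBayes) with genotype alone. Genes needed 1 TPM or more in 6 or more libraries, a filter reapplied where libraries were left out. Calls needed an adjusted p (Benjamini-Hochberg) of 0.05 or less and a log2 fold change of 1 or more in size. For single genes the mean log2(TPM + 1) was also tested by exact permutation (two-sided, 924 arrangements, smallest p 0.00216). On simulated data for this comparison, with 15148 genes, limma called 90 of 100 genes changed by a log2 of 2, 95 of 100 changed by 3, and 3 of 14948 unchanged genes. The noise was drawn for each gene on its own, so that shifts shared by the genes of a lung were absent. The changed genes were picked at random, so these rates do not give the rate for genes with a wide spread, such as Marco (SE 0.72).

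The 10 genes and the 16 further lists were chosen with earlier results of these data known. In each further list the text names the 4 tested genes with the lowest p and any called. Some genes that this rule names are not reported here. The comparison with pan-macrophage genes, the genes nearest to each member and the lists' calls with libraries left out were added after the values were seen. Gene coordinates are those of GENCODE release M21 (GRCm38), found by ID for 52081 genes, and promoters are those of RefSeq on GRCm38.p6. Alternatives were a pseudocount of 0.1, other filters, scalings, array weights and call rules, the replicate number as a block, and libraries left out. Every column of per-sample values was used. Python 3.11.15 (pandas 2.3.3, NumPy 2.4.6, SciPy 1.17.1, matplotlib 3.10.9) served for the rest.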

Additional observations from a re-analysis of the deposited data

Results flagged for a closer look

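In all, 3 lungs stood apart from the other 5 of their genotype in the level of 1 of the 10 genes, by a gap to the nearest lung that, as a share of the whole range, exceeded Dixon's 95% critical value for 6 samples. Marco in IL-10 B-WT replicate 1 was at 63.74 TPM, Plet1 in IL-10 B-WT replicate 2 at 58.47 TPM and Fabp1 in IL-10 B-KO replicate 2 at 11.44 TPM. With 20 groups examined, chance would give about 1 such lung if the groups were independent and TPM normally distributed. All 3 were high values on the TPM scale without log2, and the groups share the same lungs, so that this rate is only a rough guide.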

How the results depend on the processing

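The counts of calls were small and moved with the lungs used. Of the 10 genes, 0 were called with each other pseudocount, filter and scaling tried, with array weights and with no minimum fold change, 0 to 1 with a lung left out in turn (1, Marco, without IL-10 B-WT replicate 1), 2 with IL-10 B-WT replicate 1 left out together with IL-10 B-KO replicate 2, and 1 at an unadjusted p of at most 0.05. Of the further alveolar macrophage genes, 1 was called with array weights, 0 to 1 with a lung left out in turn, and 6 with both lungs left out. Signs turned for Krt79 (-0.22) and Mrc1 (-0.011) with array weights, and for Plet1 with array weights (-0.19), with each library centred on its median (-0.10), with quantile normalization (-0.13), after removal of immunoglobulin genes from the totals (-0.048) and without both lungs (-0.11), with -0.10 to 0.19 over the single lungs left out. Over all genes, the 75 calls became 92 with a pseudocount of 0.1, 6 with no filter, 67 at a mean TPM of at least 5, 27 without immunoglobulin genes, 39 with quantile normalization, 36 with median centring, 318 with array weights and 15 to 576 with a lung left out. The cause was not tested. Siglecf, Pparg and Fabp1 have a mean under 5 TPM and give no value with that filter.

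The labels number the lungs 1 to 6 in each genotype, but same-numbered lungs did not deviate together (r from -0.29 to 0.05), and 0 libraries correlated best with their own number. With the replicate block 0 of the 10 genes were called, as without it, and 45 of all genes.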
